A study of Homo sapiens with 12 samples.

Results

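The receptor-type protein tyrosine phosphatases described here are 10 genes, PTPRH, PTPRJ, PTPRB, PTPRF, PTPRK, PTPRM, PTPRU, PTPRA, PTPRE and PTPRG, out of 23228 genes in the gene tables. They were taken by name, because PTPRH was among the genes with the largest estradiol-associated rise in these same libraries; whether the other members of the family move with it was the question. The 10 other receptor-type genes of the family served for comparison. RNA sequencing had been performed on MDA-MB-468, a human triple-negative breast cancer cell line, engineered so that doxycycline switches on estrogen receptor beta 1, the product of ESR2. The 12 libraries form 4 groups of 3, which received either 50 ng/mL doxycycline for 48 hr (induced) or none (uninduced), followed by 4 hr with 10 nM 17-beta estradiol (E2) or with 0.1% DMSO, the vehicle. The groups are therefore induced E2, induced vehicle, uninduced E2 and uninduced vehicle, all kept without phenol red and in serum stripped with charcoal. Every group carries the inducible construct, so an action of doxycycline itself and an action of the receptor it induces cannot be told apart. The labels do not say whether replicates were separate cultures, so the p-values measure the spread between these libraries, which may be technical.

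Receptor-type tyrosine phosphatases span the plasma membrane. Their extracellular parts bind other cells, matrix or secreted proteins, and their intracellular catalytic domains remove phosphate from tyrosines, which opposes receptor tyrosine kinases such as EGFR and MET or acts on cadherin junctions and SRC-family kinases. In breast and other epithelia several members, PTPRJ and PTPRK among them, are studied as candidate tumour suppressors.

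The 250 bases upstream of the annotated start are printed for PTPRH and PTPRK, since these are the tested genes with a promoter entry whose induced E2 and induced vehicle libraries did not overlap in transcript level, PTPRH being higher and PTPRK lower with E2. The sequences are from RefSeq on build GRCh38.p14, on the gene's own strand from 5′ to 3′, and do not come from the libraries; capitals mark a GC box, GGGCGG on either strand. PTPRH lies on the minus strand of chromosome 19 (chr19:55209502-55209751) and PTPRK on the minus strand of chromosome 6 (chr6:128520600-128520849).
PTPRH: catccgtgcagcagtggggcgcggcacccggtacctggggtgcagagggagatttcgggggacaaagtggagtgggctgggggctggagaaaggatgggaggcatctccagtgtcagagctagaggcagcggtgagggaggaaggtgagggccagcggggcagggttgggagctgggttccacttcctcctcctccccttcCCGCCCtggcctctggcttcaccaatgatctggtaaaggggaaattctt
PTPRK: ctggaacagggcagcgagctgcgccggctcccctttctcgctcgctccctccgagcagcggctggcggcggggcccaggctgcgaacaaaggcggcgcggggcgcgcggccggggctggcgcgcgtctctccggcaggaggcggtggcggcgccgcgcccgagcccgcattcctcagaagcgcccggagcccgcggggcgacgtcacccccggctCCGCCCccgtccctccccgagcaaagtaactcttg
Of the 10 genes, 8 matched the promoter table, with 13 annotated starts. None of these 13 windows held the full estrogen response element (GGTCA, then 3 bases of any kind, then TGACC), its half-site GGTCA or the AP-1 site TGANTCA, searched on both strands (each full element contains half-sites). Across all 35116 promoter windows of the same length, 0.0399% held the full element, 32.6% the half-site and 6.57% the AP-1 site. A GC box was present at 6 of the 13 starts, in 6 genes, and in 42.6% of all windows. These letters describe the windows and nothing outside them.

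ESR2 had 104 ± 10.2 CPM (counts per 1000000 counts of the library, scaled by the trimmed mean of M-values, TMM) in induced E2 and 121 ± 11.7 CPM in induced vehicle libraries, against 1.61 ± 0.569 in uninduced E2 and 1.30 ± 0.216 in uninduced vehicle libraries (SD, n = 3 each), in the order the labels give. ESR1, the gene of estrogen receptor alpha, was measurable at 3.21 to 6.12 CPM in the 12 libraries and was called in no comparison. Library totals were 7889310 to 33326800 expected counts, so that 3 counts correspond to 0.0896 to 0.375 CPM. All 7 epithelial markers were measurable, with a summed level of 10393 to 10649 CPM in induced E2, 9179 to 9535 in induced vehicle, 8455 to 8912 in uninduced E2 and 8686 to 9014 in uninduced vehicle libraries. Of these 7, KRT8, KRT18 and CDH1 were higher in induced E2 than in induced vehicle libraries at an adjusted p under 0.05; in induced against uninduced vehicle libraries KRT8, KRT18 and CDH1 were also higher (log2 0.27, 0.20 and 0.23) and KRT5 was lower (log2 -0.51, adjusted p = 2.43e-05). The part of these markers in the phosphatase results was not tested. Endothelial markers summed to 3.65 to 5.54 CPM (most of the sum being ESAM, with TIE1 at 0 in every library) and leukocyte markers to 22.4 to 37.9 CPM (nearly all of the sum being CD14). Fibroblast markers summed to 22.4 to 28.7 CPM, most of it COL1A1 at 19.2 to 26.3 CPM, with DCN and LUM at 0. In each group the library numbered 1 was the least deeply sequenced, and its deposited name carries another date than those of libraries 2 and 3; what the date refers to is not given. In these bulk libraries, fewer cells of a type and less RNA per cell cannot be told apart.

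Of the 10 genes, 8 passed the filter on low counts and were tested among 14541 genes. PTPRB reached at most 7.91 expected counts in a library and PTPRE at most 2, and neither was tested. Counts were fitted with edgeR's quasi-likelihood test, and a gene is called where the Benjamini-Hochberg adjusted p over all 14541 genes is under 0.05. No test is read for the 10 genes in comparisons that use the induced E2 libraries, since PTPRH was chosen on them; the values are given as a description.

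PTPRH and PTPRJ belong, with PTPRB, to the group whose extracellular part is a row of fibronectin type III repeats. PTPRH (SAP-1), known from the microvilli of gastrointestinal epithelium, had 14.8, 8.65 and 10.1 CPM in induced E2 libraries, 2.95, 1.85 and 2.37 in induced vehicle, 2.77, 1.73 and 1.47 in uninduced E2, and 2.87, 1.77 and 1.79 in uninduced vehicle libraries. All 3 induced E2 libraries lay above the other 9, which overlapped one another. The fitted level in induced E2 libraries was 4.84 times that in induced vehicle libraries, a log2 fold change of 2.28 ± 0.25 (SE), the 38th largest rise among the 14541 genes, and 5.76 times that in uninduced E2 libraries (log2 2.53 ± 0.25). PTPRH rests on few reads: 260, 220 and 225 expected counts in the induced E2 libraries, against 38, 59 and 45 in induced vehicle libraries. By replicate number the E2 difference in induced cells was 2.29, 2.17 and 2.05 on the log2 scale. The fit without the libraries numbered 1 of all 4 groups gave 2.18.

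In the comparisons without induced E2 libraries, PTPRH showed no called change. The comparison of induced with uninduced vehicle libraries, however, shares its induced vehicle libraries with the comparison that chose PTPRH. Induced vehicle libraries differed from uninduced vehicle libraries by log2 0.21 ± 0.32 (SE, adjusted p = 0.828), and uninduced E2 from uninduced vehicle libraries by log2 -0.04 ± 0.31 (adjusted p = 1). With 23 to 59 counts per library in these groups, changes larger than these standard errors could also go uncalled. In induced against uninduced vehicle libraries, the non-receptor phosphatase PTPN13 at log2 -0.18 ± 0.05 (SE) was not called (edgeR adjusted p = 0.0943).

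PTPRJ (DEP-1, CD148), which dephosphorylates several growth factor receptors, was lower where PTPRH was higher. It had 37.4, 43.5 and 47.4 CPM in induced E2 libraries, 51.6, 61.8 and 59.7 in induced vehicle, 72.1, 75.9 and 71.9 in uninduced E2, and 68.9, 74.2 and 73.5 in uninduced vehicle libraries. The induced E2 libraries were the lowest, the induced vehicle libraries lay between them and the uninduced ones without overlap on either side, and the 2 uninduced groups overlapped. In the comparison of induced with uninduced vehicle libraries, PTPRJ fell by 0.32 on the log2 scale (SE 0.08, edgeR adjusted p = 0.0301), a level 1.25 times lower, and it was lower in 3 of 3 same-numbered pairs. It was the 1 member called there, as a decrease, among 8 tested; of all genes tested, 1.37% were called lower and 2.44% higher. The other 7 tested members had adjusted p from 0.450 (PTPRK) to 0.997 (PTPRM), and the median log2 change of the 8 was -0.02, against -0.001 over all genes. KRT8, KRT18, CDH1 and KRT5, of the epithelial markers, were called in the same comparison, and their part was not tested. This comparison shares its 3 induced vehicle libraries with the one that chose PTPRH. The call was lost when uninduced vehicle replicate 2 (adjusted p = 0.128) or 3 (0.121), or induced vehicle replicate 1 (0.0885) or 3 (0.0691) was left out, while the log2 change stayed between -0.38 and -0.26; over libraries 2 and 3 alone it was -0.28, with an adjusted p of 0.000551.

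With E2, PTPRJ in induced cells was lower still, at a level 1.35 times below induced vehicle libraries (log2 -0.44 ± 0.08, SE) and 1.71 times below uninduced E2 libraries (log2 -0.77 ± 0.08). In uninduced cells the E2 difference was log2 0.02 ± 0.07 (adjusted p = 1). PTPRB (VE-PTP), the endothelial member of this group, had 1.51 to 6.38 expected counts in induced E2, 4.33 to 7.91 in induced vehicle, 4.33 to 7.21 in uninduced E2 and 0 to 4.97 in uninduced vehicle libraries, too few to compare.

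**Figure D1:**
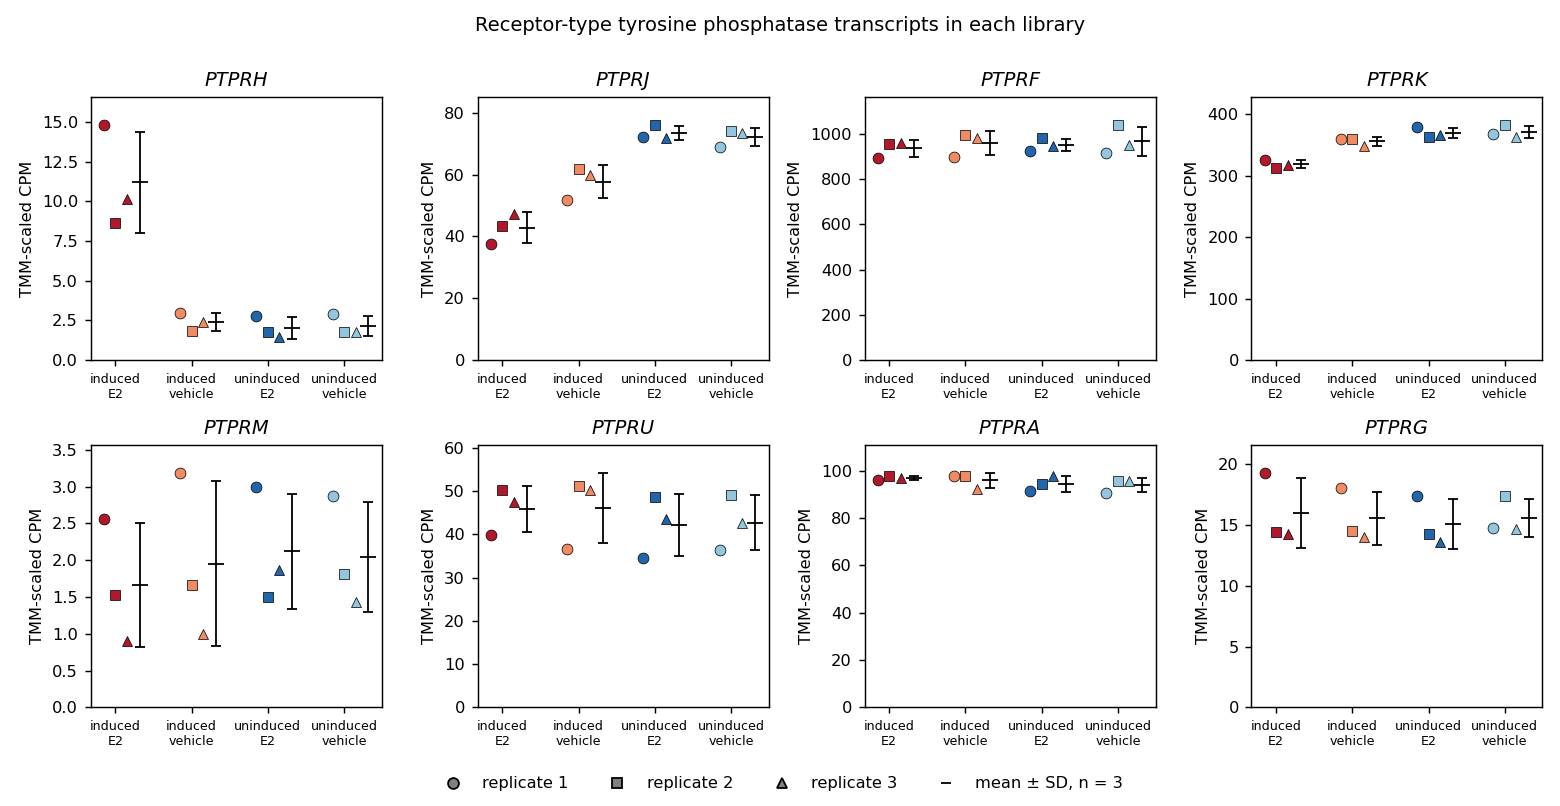
TMM-scaled CPM (vertical axes, from 0) of the 8 tested genes in each of the 12 libraries; horizontal positions are the groups, marker shapes the replicate numbers, and dashes with bars the mean ± SD of 3 libraries. PTPRH stands at 8.65 to 14.8 CPM in induced E2 libraries and at 1.47 to 2.95 CPM in the other 9. PTPRJ steps down in the induced groups, while PTPRF, PTPRU, PTPRM and PTPRG overlap between all groups. PTPRA overlaps between all groups except that its induced E2 libraries lie just above its uninduced vehicle libraries.

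Of the LAR-type phosphatases, with immunoglobulin and fibronectin domains, PTPRF (LAR), which binds liprins and acts on the insulin receptor, had the highest level per length of the family. Its range was 893 to 958 CPM in induced E2 libraries, 899 to 996 in induced vehicle, 926 to 981 in uninduced E2 and 914 to 1038.5 in uninduced vehicle libraries. These ranges overlapped, and the fitted log2 change with E2 in induced cells was -0.04 ± 0.05 (SE). Doxycycline without E2 gave log2 -0.01 ± 0.05 (adjusted p = 0.954). The closely related PTPRS, a receptor for proteoglycans, is not one of the 10 genes and could be tested throughout. Its levels were 79.0, 79.8 and 82.8 CPM in induced E2, 84.2, 94.1 and 91.8 in induced vehicle, 89.4, 103 and 91.0 in uninduced E2, and 81.6, 106 and 94.6 in uninduced vehicle libraries. PTPRS was not called with E2 in induced cells (log2 -0.17 ± 0.08, adjusted p = 0.191), but it was with only those 2 groups fitted (adjusted p = 0.0481) and without the libraries numbered 1 (0.0194), and it was lower in 3 of 3 same-numbered pairs. It fell in induced E2 against uninduced E2 libraries (log2 -0.23 ± 0.08, adjusted p = 0.0355), a call lost without uninduced E2 replicate 2 (adjusted p = 0.173) or induced E2 replicate 1 (0.0853), 2 (0.0965) or 3 (0.0606).

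PTPRK, PTPRM and PTPRU carry a MAM domain and bind to themselves or to cadherin junctions between neighbouring cells. PTPRK had 325, 313 and 317 CPM in induced E2 libraries, 360, 360 and 348 in induced vehicle, 379, 363 and 366 in uninduced E2, and 367, 382 and 363 in uninduced vehicle libraries. Its induced E2 libraries lay below all others, by log2 -0.16 ± 0.03 (SE) against induced vehicle and -0.21 ± 0.03 against uninduced E2 libraries, small differences with a small spread. Induced vehicle libraries lay just below uninduced vehicle libraries without overlap, but the change was not called (log2 -0.06 ± 0.03, adjusted p = 0.450). PTPRU averaged 45.8 ± 5.31 CPM in induced E2 and 46.1 ± 8.14 in induced vehicle libraries, against 42.1 ± 7.11 in uninduced E2 and 42.7 ± 6.39 in uninduced vehicle libraries (SD, n = 3 each). PTPRM was near the lower limit, at 0.899 to 3.19 CPM in the induced and 1.43 to 3.00 CPM in the uninduced libraries, and its E2 difference in induced cells of log2 -0.18 had a standard error of 0.43.

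PTPRA and PTPRE have short, glycosylated extracellular parts; PTPRA is known to activate SRC-family kinases by removing an inhibitory phosphate. PTPRA had 97.1 ± 0.886 CPM in induced E2, 96.0 ± 3.18 in induced vehicle, 94.5 ± 3.26 in uninduced E2 and 94.0 ± 2.76 in uninduced vehicle libraries (SD, n = 3 each). Its log2 difference was 0.02 ± 0.04 (SE) with E2 in induced cells and 0.03 ± 0.04 (adjusted p = 0.838) with doxycycline in the absence of E2. PTPRE had 2 expected counts in each induced E2 library and 0 in the other 9, all below the 3 counts that a count of 0 allows, so no fold is given. PTPRG, with a carbonic anhydrase-like domain that binds contactins, averaged 15.98 ± 2.85, 15.5 ± 2.20, 15.1 ± 2.03 and 15.6 ± 1.56 CPM in induced E2, induced vehicle, uninduced E2 and uninduced vehicle libraries (SD, n = 3 each). It was not called in the comparisons without induced E2 libraries.

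Counted together, 3 of the 8 tested genes had a positive and 5 a negative fitted log2 change with E2 in induced cells. Over all genes, 9.85% were called higher and 6.61% lower there (1433 and 961 genes). Without induced vehicle replicate 2 these counts were 1149 and 609, and with upper quartile scaling 1258 and 1206. The median log2 change of the 8 was -0.03, against -0.005 over all 14541 genes. For doxycycline with E2, 4 of the 8 changes were positive and 4 negative. Of all genes, 28.0% were called there in either direction (2184 higher and 1894 lower, or 1799 and 2679 with upper quartile scaling). The difference between the E2 effects of induced and uninduced cells was log2 2.31 ± 0.41 (SE) for PTPRH, -0.45 ± 0.11 for PTPRJ and -0.15 ± 0.05 for PTPRK. Over all genes, it was called positive for 5.66% and negative for 2.81%. Leaving out 1 library in turn, the PTPRJ difference stayed between -0.53 and -0.37. The 3 comparisons share the induced E2 libraries that chose PTPRH, so no call is given here for the 8 genes and nothing is read from these counts. E2 in uninduced cells, which shares no library with that choice, called 0 of the 8 genes and 0 of all genes (0%) by edgeR; 227 genes had an unadjusted p under 0.05 there, and DESeq2 called 1, RPL21, named after its value was seen. The largest differences of the 8 in that comparison were log2 0.13 ± 0.42 for PTPRM and -0.08 ± 0.13 for PTPRG (SE).

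**Figure D2:**
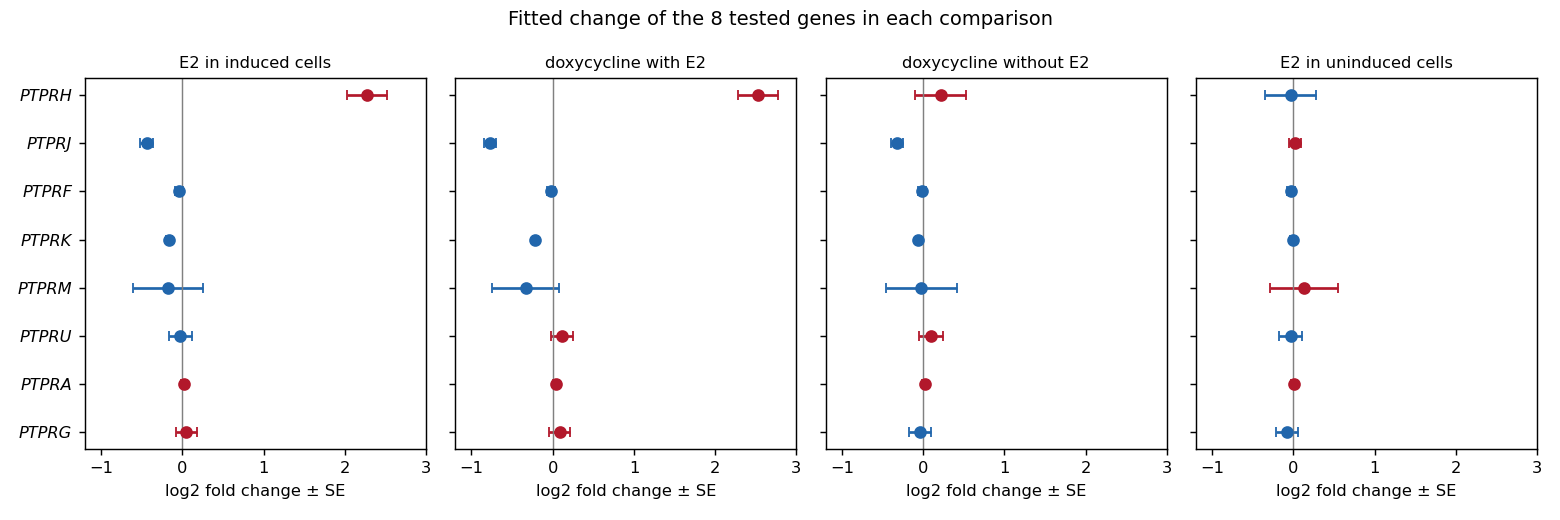
Fitted log2 fold change ± SE (horizontal axes) of the 8 tested genes in 4 comparisons, with red for positive and blue for negative estimates. PTPRH lies at 2.28 and 2.53 in the 2 comparisons that contain induced E2 libraries and at 0.21 and -0.04 in the others; PTPRJ is negative in the first 3 panels.

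Per length, in TPM (transcripts per 1000000 transcripts), the order of the members was PTPRF, PTPRK, PTPRA, PTPRS, PTPRJ, PTPRU, PTPRG, PTPRH and PTPRM in both uninduced groups. In uninduced vehicle libraries PTPRF averaged 269 ± 16.6 TPM, PTPRK 131 ± 3.35 and PTPRA 62.6 ± 1.06, and only the neighbours PTPRH and PTPRM overlapped among these 9. Places in the middle of the order differed between the groups. PTPRJ averaged 12.1 ± 1.30 TPM in induced E2 and 16.2 ± 1.65 in induced vehicle libraries, against 20.5 ± 0.527 in uninduced E2 and 20.3 ± 0.767 in uninduced vehicle libraries. PTPRU had 17.0 ± 2.005, 17.5 ± 3.06, 16.1 ± 2.55 and 16.4 ± 2.38 TPM in the same groups, so PTPRU lay above PTPRJ in induced E2 libraries, overlapped it in induced vehicle libraries and lay below it in the uninduced ones. PTPRH averaged 5.94 ± 1.68 TPM in induced E2 libraries, overlapping PTPRG at 4.97 ± 0.869, against 1.30 ± 0.304 in induced vehicle libraries, where PTPRG had 4.96 ± 0.715 (SD, n = 3 for each value).

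**Figure D3:**
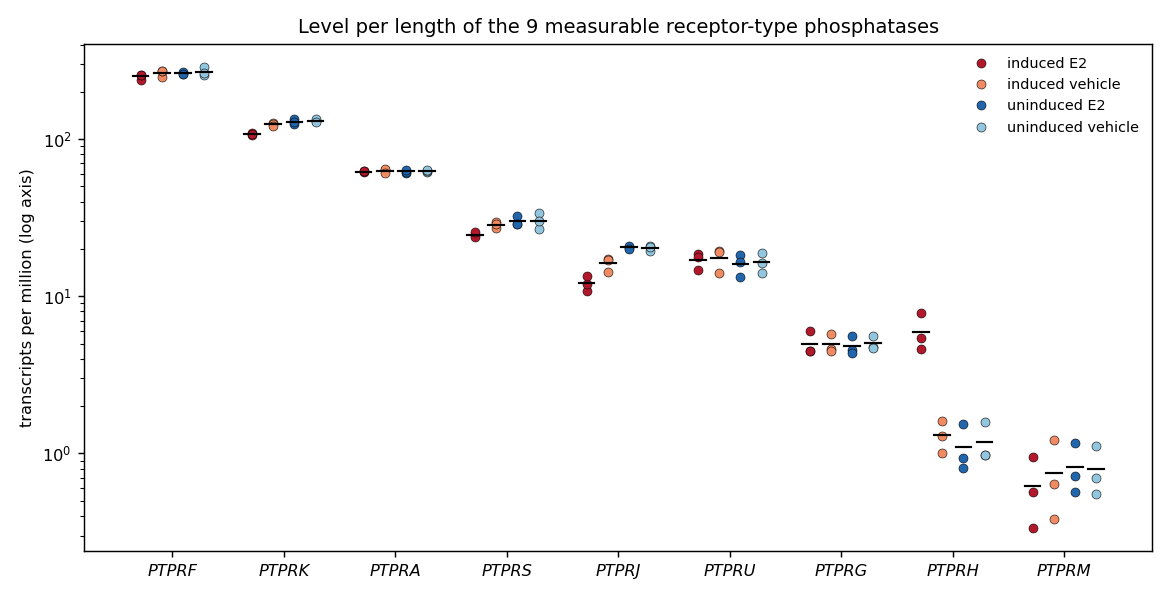
Level per length in TPM (log axis) of the 9 receptor-type phosphatases that passed the count filter, with 1 point per library and a line at each group mean. PTPRF is highest at 251 to 269 TPM on average, and PTPRH reaches the level of PTPRG in induced E2 libraries.

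The whole family of 20 genes summed to 487 ± 10.7 TPM in induced E2 and 520 ± 17.2 in induced vehicle libraries, against 527 ± 5.15 in uninduced E2 and 537 ± 26.4 in uninduced vehicle libraries (SD, n = 3 each). PTPRF made up 51.5% of the sum in induced E2, 50.7% in induced vehicle, 49.7% in uninduced E2 and 50.1% in uninduced vehicle libraries. PTPRH made up 1.23% ± 0.373 of it in induced E2 libraries and 0.252% ± 0.0671 in induced vehicle libraries. PTPRJ made up 2.49% ± 0.214 and 3.11% ± 0.224 in induced E2 and induced vehicle libraries. Of the 10 other family genes, PTPRS alone was tested; 6 (PTPRD, PTPRN2, PTPRQ, PTPRR, PTPRT and PTPRZ1) had 0 counts in all 12 libraries, which allows up to 0.0896 to 0.375 CPM per library for counting error only, and PTPRC, PTPRO and PTPRN reached at most 8, 5 and 1 counts.

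The libraries numbered 1 differed from their group mates in the same direction for several members. They held the highest PTPRH and PTPRM values in 4 of 4 groups and the highest PTPRG in 3, and the lowest PTPRF, PTPRU and PTPRS in 4 of 4 and the lowest PTPRJ and PTPRA in 3. PTPRU, for example, had 39.9 CPM in induced E2 replicate 1 against 50.1 and 47.4 in replicates 2 and 3, and 36.7 in induced vehicle replicate 1 against 51.2 and 50.3. These libraries also had the fewest counts of each group, and the part of depth or date in this pattern was not tested.

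By pattern over the 4 group means, the 5 genes nearest to PTPRH among 12421 genes averaging 1 or more on the log2 CPM scale were IRS2, IL12A, NUAK1, TNS4 and RHOU. Their centred log2 CPM differed from that of PTPRH by a root mean square of 0.08, 0.10, 0.12, 0.12 and 0.14. IRS2, for instance, stood at 1.65 in induced E2 libraries, -0.50 in induced vehicle, -0.60 in uninduced E2 and -0.55 in uninduced vehicle libraries relative to its own mean, where PTPRH stood at 1.74, -0.43, -0.71 and -0.59. With 4 points the measure is a description.

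The cytoplasmic, non-receptor tyrosine phosphatases were tested for comparison. Among them PTPN20A and PTPN20B held identical expected counts in every library and are counted as separate genes. When induced cells received E2, 1 of 16 tested (of 18 listed) rose and 2 fell, with a median log2 change of -0.02, against 9.85% of all genes higher, 6.61% lower and a median of -0.005; nothing is read from counts this small. PTPN13, a large phosphatase with PDZ domains, had 22.8, 25.0 and 25.7 CPM in induced E2 libraries, 38.4, 39.1 and 40.5 in induced vehicle, 47.2, 42.8 and 43.0 in uninduced E2, and 45.7, 44.0 and 44.5 in uninduced vehicle libraries. Its induced E2 libraries did not overlap any other, and it fell by 0.68 on the log2 scale (SE 0.06, adjusted p = 7.82e-07). PTPN21 fell by 0.27 (SE 0.05, adjusted p = 0.00127), with 19.8 ± 0.733 CPM in induced E2 against 23.9 ± 0.342 in induced vehicle libraries (SD, n = 3 each). PTPN1 (PTP1B), which dephosphorylates the insulin receptor, rose by 0.14 (SE 0.04, adjusted p = 0.0273), a call lost in 4 of 12 fits that leave out 1 library. The abundant PTPN11 (SHP2) and PTPN14 were not called (log2 0.02 ± 0.04 and -0.18 ± 0.06, adjusted p = 0.849 and 0.0572). Doxycycline without E2 called 0 of the 16 by edgeR, where 2.44% of all genes were called higher and 1.37% lower, too few to read. With E2 present, doxycycline called PTPN1 higher (log2 0.18) and PTPN13 (-0.85), PTPN21 (-0.35), PTPN9 (-0.16) and PTPN2 (-0.16) lower, where 28.0% of all genes were called; the last 2 were each lost in 4 of 12 fits that leave out 1 library.

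Among 17 extracellular partners, 5 were tested, of which 1 rose and 1 fell when induced cells received E2, at a median log2 change of -0.18; counts of 1 in 5 are too few to read against the 9.85% of all genes higher and 6.61% lower. THBS1, thrombospondin 1, reported as a ligand of PTPRJ, rose with E2 in induced cells by log2 0.41 ± 0.07 (SE, adjusted p = 0.000578), with 435, 403 and 391 CPM in induced E2 against 351, 296 and 283 in induced vehicle libraries. SLITRK6, from a family of neuronal adhesion proteins that bind LAR-type phosphatases, fell by 0.94 (SE 0.19, adjusted p = 0.00261), with 91.3, 53.2 and 59.1 CPM in induced E2 against 164, 109 and 117 in induced vehicle libraries. In both groups the library numbered 1 was the highest for both genes. SLITRK5 was lower in induced than in uninduced vehicle libraries (adjusted p = 0.000696), but on 0, 3 and 2 expected counts against 5, 20 and 18, and a minimum count of 50 removes it. THBS1 and SLITRK6 were not called there (log2 0.06 ± 0.07 and -0.08 ± 0.18, adjusted p = 0.765 and 0.913).

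Of 8 intracellular adaptors, 7 were tested, of which 1 rose and 2 fell in the same comparison, at a median log2 change of 0.02, against the same 9.85% and 6.61% of all genes. Nothing is read from counts this small. PPFIA1, liprin-alpha 1, a scaffold that binds PTPRF, rose with E2 in induced cells by log2 0.34 ± 0.04 (SE, adjusted p = 4.98e-05), to 212 ± 7.23 CPM against 167 ± 7.65 in induced vehicle libraries (SD, n = 3 each). The beta liprins PPFIBP2 and PPFIBP1 fell by 0.48 (SE 0.09, adjusted p = 0.00149) and 0.26 (SE 0.06, adjusted p = 0.00582). Doxycycline without E2 called 0 of the 7 by edgeR, where 2.44% of all genes were called higher and 1.37% lower, again too few to read.

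Of 19 substrates reported for the family, 15 were tested, and 5 rose and 1 fell with E2 in induced cells, at a median log2 change of 0.05, where 9.85% of all genes were higher and 6.61% lower. The list was chosen with earlier results of these data known, so nothing is read from its shares. CDH1, E-cadherin, had 316, 337 and 340 CPM in induced E2 libraries against 174, 178 and 175 in induced vehicle libraries, a log2 change of 0.91 ± 0.04 (SE, adjusted p = 1.52e-09). INSR, the insulin receptor, rose by log2 0.54 ± 0.09 (adjusted p = 0.000952), BCAR1, an adhesion scaffold, by 0.36 ± 0.06 (0.000521), and IGF1R by 0.33 ± 0.06 (0.00138); ERBB2 was the fifth. MET, the hepatocyte growth factor receptor and a reported substrate of PTPRJ, fell by 0.35 (SE 0.03, adjusted p = 1.71e-06), with 366, 353 and 360 CPM in induced E2 against 467, 451 and 453 in induced vehicle libraries. EGFR and CTNND1, the most abundant substrates, were not called (log2 -0.04 ± 0.04 and -0.04 ± 0.03, adjusted p = 0.614 and 0.442). Doxycycline without E2 called 2 of the 15, 1 in each direction, where 2.44% of all genes were higher and 1.37% lower. KDR, the VEGF receptor that PTPRJ is known to act on, fell by 0.97 (SE 0.16, adjusted p = 0.00188), with 18.1, 25.3 and 26.1 CPM in induced vehicle against 35.5, 50.8 and 48.5 in uninduced vehicle libraries, and CDH1 rose by 0.23 (SE 0.04, adjusted p = 0.00343). With E2 present, doxycycline called 1 of the 5 partners higher and 2 lower, 1 of the 7 adaptors higher and 2 lower, and 5 of the 15 substrates higher and 3 lower, where 28.0% of all genes were called in either direction. Of those 3, FLT3 (log2 -0.58 ± 0.20, SE, adjusted p = 0.0438), lost its call in 7 of 12 fits that leave out 1 library. In uninduced cells E2 called none of these partner, adaptor, substrate or non-receptor genes, and 0 of all 14541 genes, by edgeR.

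**Figure D4:**
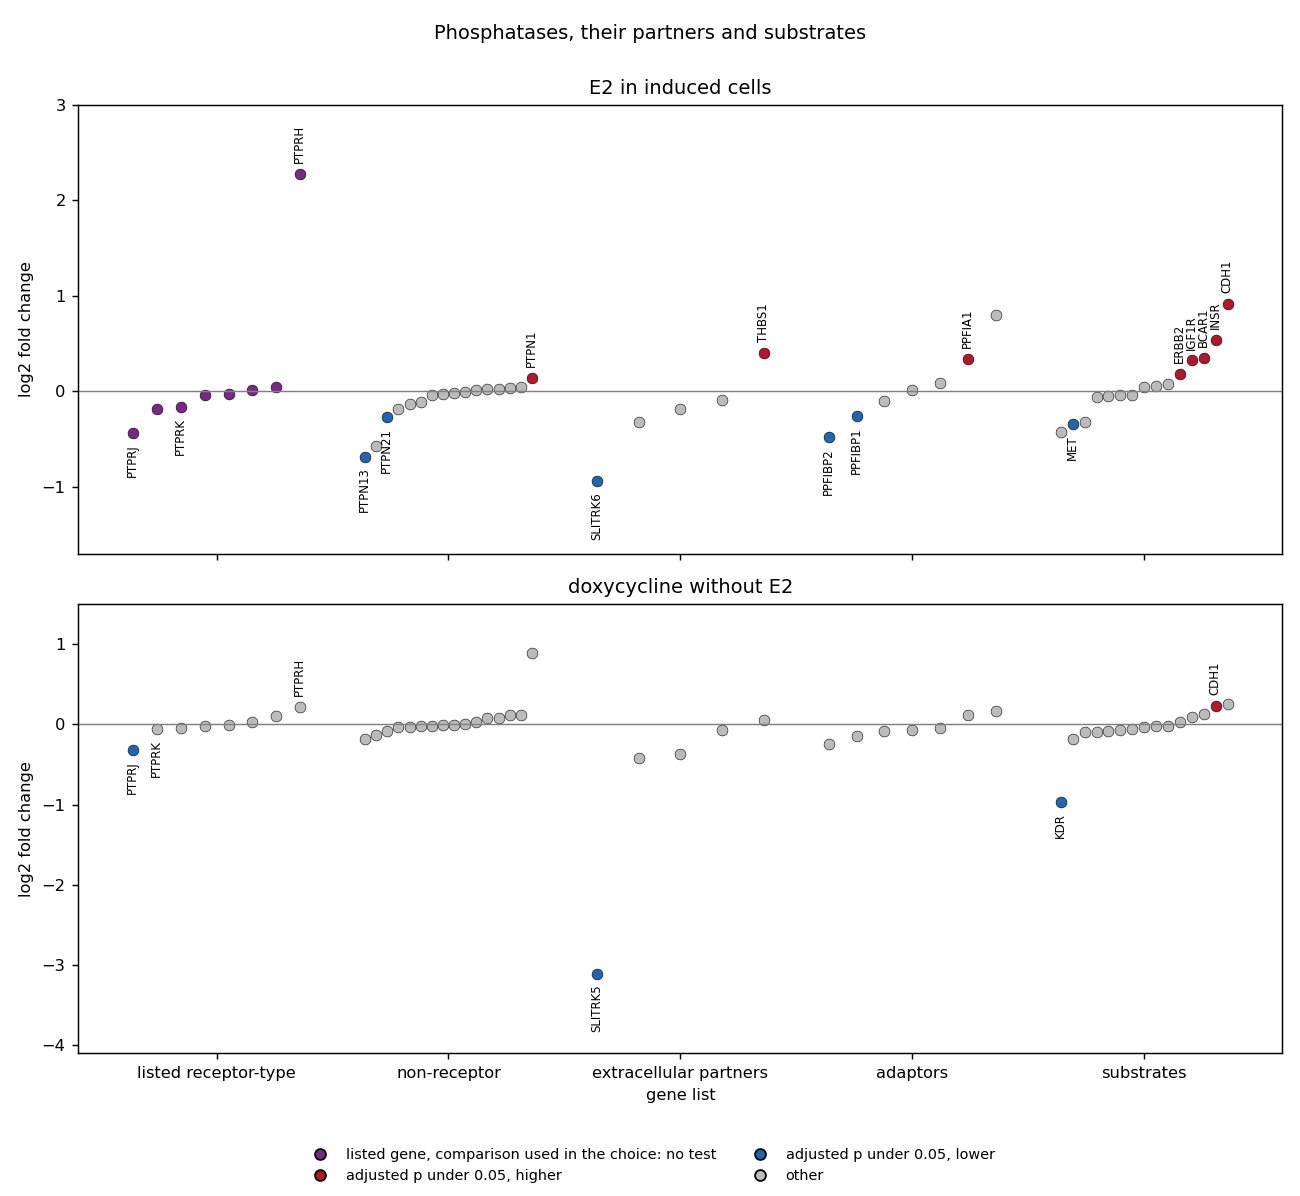
Log2 fold change (vertical axes) of every tested gene in 5 gene lists, for E2 in induced cells (top) and doxycycline without E2 (bottom). Red and blue mark genes called higher and lower, grey the rest, and purple the listed phosphatases in the comparison that chose PTPRH; PTPRH at 2.28 is the highest point of the upper panel.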

How the data were processed

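RNA of 12 libraries had been sequenced after TruSeq library preparation, per the labels' protocols. The deposited tables hold, per gene, the expected counts estimated by the authors, a fraction of transcripts that sums to 1 per library, and the transcripts of the gene; the submitters' processing notes name RSEM 1.1.16, DESeq 1.7.10 and the build hg19. The sources used here do not state strand, so reads of overlapping antisense genes cannot be told apart. The authors' fraction was rescaled to TPM, used to compare genes. Expected counts were rounded and fitted in edgeR 4.0.16 (R 4.3.3; filterByExpr with a minimum count of 10, TMM scaling, 1 coefficient per group over all 12 libraries, quasi-likelihood test, Benjamini-Hochberg adjustment over 14541 genes). The scripts were tested on simulated data. DESeq2 1.42.0 was an alternative, with other scalings, count filters, 2-group fits, a replicate block and each library left out.

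The members and gene lists were chosen with earlier results of these data known. Named from the other lists were genes called in a comparison, at most the 5 with the smallest p, plus up to 2 abundant uncalled genes, and the 5 genes nearest to PTPRH. No 2 libraries held identical values. Totals of 7889310 to 33326800 expected counts set the precision, and floors and intervals cover counting error only. The promoter windows are from GRCh38.p14 and were not matched to hg19 coordinates.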

Additional observations from a re-analysis of the deposited data

Results flagged for a closer look

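The difference between the E2 effects of induced and uninduced cells was tested for genes outside the 10 listed phosphatases, as 1 contrast of the edgeR fit, with p adjusted over all 14541 genes. The difference, on the log2 scale, was called for 12 of the 44 tested genes of the comparison lists, 7 positive and 5 negative, where it was positive for 5.66% and negative for 2.81% of all genes. The lists were chosen with earlier results of these data known, so nothing is read from this share. Among non-receptor phosphatases the difference was -0.67 for PTPN13 (adjusted p = 5.70e-05). Among extracellular partners it was 0.41 for THBS1 (adjusted p = 0.0147) and -0.90 for SLITRK6 (0.0480). Among adaptors it was 0.38 for PPFIA1 (adjusted p = 0.000949), -0.31 for PPFIBP1 (0.0288) and -0.46 for PPFIBP2 (0.0305). Among substrates it was 0.94 for CDH1 (adjusted p = 1.96e-07), -0.33 for MET (0.000163), 0.57 for INSR (0.0162), 0.34 for IGF1R (0.0231), 0.21 for ERBB2 (0.0252) and 0.29 for BCAR1 (0.0427). Each had the same sign in 3 of 3 same-numbered pairs. Leaving out 1 library in turn, the call was lost in 10 of 12 fits for BCAR1, in 9 for SLITRK6 and PPFIBP2, in 6 for ERBB2 and PPFIBP1, in 4 for IGF1R and in 1 for INSR, with adjusted p up to 0.129; it was kept in all 12 for PTPN13, THBS1, PPFIA1, CDH1 and MET. With 3 libraries per group, single libraries were not checked for standing apart.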

How the results depend on the processing

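No listed phosphatase changed sign among the called values under any alternative run. Alternatives were tallied for the tested listed phosphatases in every comparison, and for other genes only where the main fit called them. Of these values, 1709 were counted as unchanged, 84 lost a call and 4 gained one. The 1709 include changes of the listed phosphatases computed from the fractions of transcripts. Those have no p and were compared by the size of the log2 change alone. A gain was not counted for the other genes. The count of genes called with doxycycline without E2 was 554; it was 1456 with a replicate block and 364 to 1082 in fits that leave out libraries. The difference between the E2 effects of induced and uninduced cells was called for 1232 genes, for 2143 with a replicate block and for 945 to 2105 with libraries left out. Of these, 409 were negative, against 855 with the block, and 267 when induced vehicle replicate 2 was left out. The 961 genes that fell with E2 in induced cells became 1497 with the block. The 199 that fell with doxycycline alone became 651 with the block, 439 without the libraries numbered 1 and 111 without uninduced vehicle replicate 2. E2 in uninduced cells called 0 genes, 1 by DESeq2 (RPL21), and 0 to 1 with libraries left out (ZNF321P, without uninduced vehicle replicate 2), both named after their values were seen. The 1 listed phosphatase called with doxycycline without E2, PTPRJ, became 0 to 1 with libraries left out. Same-numbered libraries of other groups correlated at 0.0409 to 0.433 in their deviations from the group means (18 pairs, median 0.219, 13 over 0.1). Libraries of different numbers correlated at -0.398 to 0.321 (36 pairs, median -0.188). All 18 same-number correlations were positive, so libraries share a pattern by number, which the main fit does not model. Its standard errors and adjusted p-values leave that pattern in the spread. The numbers, whose meaning the labels do not give, were not used to pair the libraries. Only 6 of 12 libraries correlated best with their own number. The block kept 554 of 554 calls for doxycycline without E2 and 1232 of 1232 for the difference between E2 effects. PTPRS with E2 in induced cells gained a call with the block (adjusted p = 0.0206), with only those 2 groups fitted and without the libraries numbered 1. The PTPRK difference between the E2 changes gained one in 4 alternatives, DESeq2 among them. That difference uses the induced E2 libraries that chose PTPRH, so nothing is read from it. The causes were not tested. For PTPRH and PTPRM, 19 to 260 expected counts per library limit the precision.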
